A study of Mus musculus with 14 samples.

Results

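Cell cycle genes were followed as a list of 43 genes, 12 that act in G1, 14 in S phase and 17 in G2 and M phase, among the 21444 genes counted in the mRNA libraries. They were taken from the files by symbol, and all 43 were found and passed the filter on low counts, which left 14019 genes for testing. Bone marrow derived macrophages were grown from marrow of C57BL/6 mice in DMEM with 20% L929 medium; L929 is a line of mouse fibroblasts and a source of CSF1, the macrophage growth factor. The sample protocol gives 6 days of culture and the series design text gives 7. All samples carried the ELAVL1f/f allele, in which loxP sites flank part of the gene for the RNA-binding protein ELAVL1 (HuR). Samples labelled KO (genotype ELAVL1f/f, LysM-Cre) also carried LysM-Cre, in which the Lyz2 locus drives Cre recombinase, so that it is active where this myeloid gene is on. Samples labelled WT carried no Cre, so every comparison of KO with WT is also a comparison of Cre with no Cre. No activating agent is named in the labels.

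Polyadenylated RNA was sequenced in 4 WT and 4 KO libraries, numbered 1 to 4 in each genotype. AGO2-bound RNA was sequenced by PAR-CLIP in 1 WT and 1 KO library, and small RNA in WT 1 and 2 and KO 3 and 4. The labels do not tie a number to an animal or a day, and p-values cover only the variation among these libraries, which may be technical.

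Cells enter the cycle when mitogens such as CSF1 induce D-type cyclins, which activate the kinases CDK4 and CDK6. These phosphorylate RB and so release E2F factors, which switch on cyclin E and the genes of DNA replication; cyclins A and B with CDK1 then drive mitosis. AGO2 carries miRNAs to sites in mRNA that pair with the miRNA's seed, bases 2 to 8, and D cyclins, cyclin E and CDC25A are textbook targets of miRNAs of the miR-15/16 family.

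The mRNA libraries held between 8160789 counts (KO 1) and 25030262 counts (KO 4). Elavl1, the targeted gene, was not lower in the libraries labelled KO. It stood at 65.9, 61.2, 62.6 and 64.2 CPM (counts scaled to library size with TMM factors) in WT 1 to 4 and at 76.8, 64.1, 64.9 and 72.4 CPM in KO 1 to 4. The counts cover the whole gene and do not separate the deleted part, so they check nothing about it, and WT and KO name libraries by label throughout. Lyz2, the gene that carries Cre, ran from 9949 to 15451 CPM in WT and from 3723 to 6142 CPM in KO, with no overlap. The other 8 macrophage markers found (Csf1r, Adgre1, Cd68, Itgam, Mertk, Fcgr1, Cd14 and Mrc1) were present in all libraries, and their sum was 9960 to 10239 CPM in WT and 9193 to 10759 CPM in KO. Of 9 marker lists for other cells, 4 summed higher in libraries numbered 3 and 4 than in those numbered 1 and 2 with no overlap, 2 summed lower and 3 overlapped. The 10 stromal markers summed to between 2.17 and 4.57 CPM in numbers 1 and 2 and between 7.87 and 58.6 CPM in numbers 3 and 4, and the 7 endothelial markers to between 39.2 and 49.3 CPM and between 99.3 and 129.0 CPM. Mast cell markers (0.830 to 1.87 CPM against 6.52 to 9.12 CPM) and T or NK cell markers (0.0692 to 0.527 CPM against 0.604 to 1.02 CPM) were also higher. B cell markers (42.6 to 54.2 CPM against 27.1 to 32.2 CPM) and erythroid markers (3.94 to 6.91 CPM against 2.23 to 3.34 CPM) were lower in numbers 3 and 4. The granulocyte precursor, megakaryocyte and dendritic cell sums overlapped between the number sets.

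Per length, the cell cycle mRNAs spanned more than 2 orders of magnitude in WT, with a median of 13.1 RPKM (reads scaled to transcript length and library size). The highest was Pcna, the sliding clamp of DNA polymerases, at 210.6 ± 75 RPKM (SD, n = 4), and the lowest was the mitotic phosphatase Cdc25c at 0.984 ± 0.35 RPKM. Of the 43 genes, 13 were above 20 RPKM and 4 were under 2 RPKM. The S phase genes had the highest median, 21.9 RPKM, against 11.9 RPKM for G2 and M and 7.23 RPKM for G1. Among the D cyclins the means of Ccnd3 (65.2 ± 35 RPKM) and Ccnd1 (56.6 ± 17 RPKM) did not differ beyond their spread, and Ccnd2 was at 3.63 ± 2.8 RPKM. Ccnd3 was above Ccnd1 in WT 1 and 2 (96.1 and 94.4 against 72.3 and 35.4 RPKM). In WT 3 and 4 Ccnd3 was below Ccnd1 (32.9 and 37.5 against 51.5 and 67.1 RPKM). The KO libraries of the same numbers had the same order. The kinase Cdk4 (31.4 ± 2.5 RPKM) was above Cdk6 (8.01 ± 3.8 RPKM), and Ccne1 (4.52 ± 1.1 RPKM) above Ccne2 (1.15 ± 0.84 RPKM).

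No cell cycle mRNA passed the test of KO against WT across all genes. edgeR's quasi-likelihood test called 0 of the 43 genes and 0% of the 14019 genes at an adjusted p under 0.05 (the adjusted p of all 43 rounded to 1.0), and 0 of the 43 against 0.578% of all genes had an unadjusted p under 0.05. With the replicate number as a block, edgeR called 0.0357% of all genes (5) and DESeq2 0.585% (82), and none of the 43 was among them in either fit. The smallest adjusted p of a cell cycle gene in the blocked edgeR fit was 0.301, for Mki67. At an unadjusted p under 0.05 that fit held 11 of the 43, against 9.42% of all genes. Of these, 10 were lower in KO (Mki67, Ccne2, Top2a, Wee1, Ccnb1, Ccna2, Ccne1, Plk1, Bub1 and Rrm2), against 4.52% of all genes, and Ccnd2 was higher.

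As a group the fitted values lay slightly under 0. The fold change was negative for 34 of 43 genes, against 50.4% of all genes, with a median log2 fold change of -0.15 against -0.00. By phase it was negative for 7 of 12 G1 genes (median -0.09), 12 of 14 S phase genes (median -0.15) and 15 of 17 G2 and M genes (median -0.22). The largest negative and positive values both belonged to G1 cyclins, Ccne2 at -0.69 and Ccnd2 at 0.44. These values rest in part on single libraries. Without WT 1, which held the highest WT value for 25 of the 43 genes, the median was -0.04, with 23 genes lower and 20 higher. Without KO 1 the median was -0.26. At the other end, WT 2 held the lowest WT value for 28 of the 43 genes. The highest and lowest WT library was not counted over all genes, so these counts may not be particular to the list. Sums of 5 megakaryocyte markers were higher in KO in all 4 numbers (13.4, 30.4, 22.1 and 20.2 CPM in WT 1 to 4, and 17.1, 38.2, 29.2 and 24.3 CPM in KO). Sums of 11 neutrophil and granulocyte precursor markers were higher in KO in numbers 1 to 3 and lower in number 4 (10.9, 37.6, 27.2 and 28.9 CPM in WT, and 26.8, 65.9, 42.6 and 23.8 CPM in KO). The part of these cells in the cell cycle values was not tested.

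**Figure D1:**
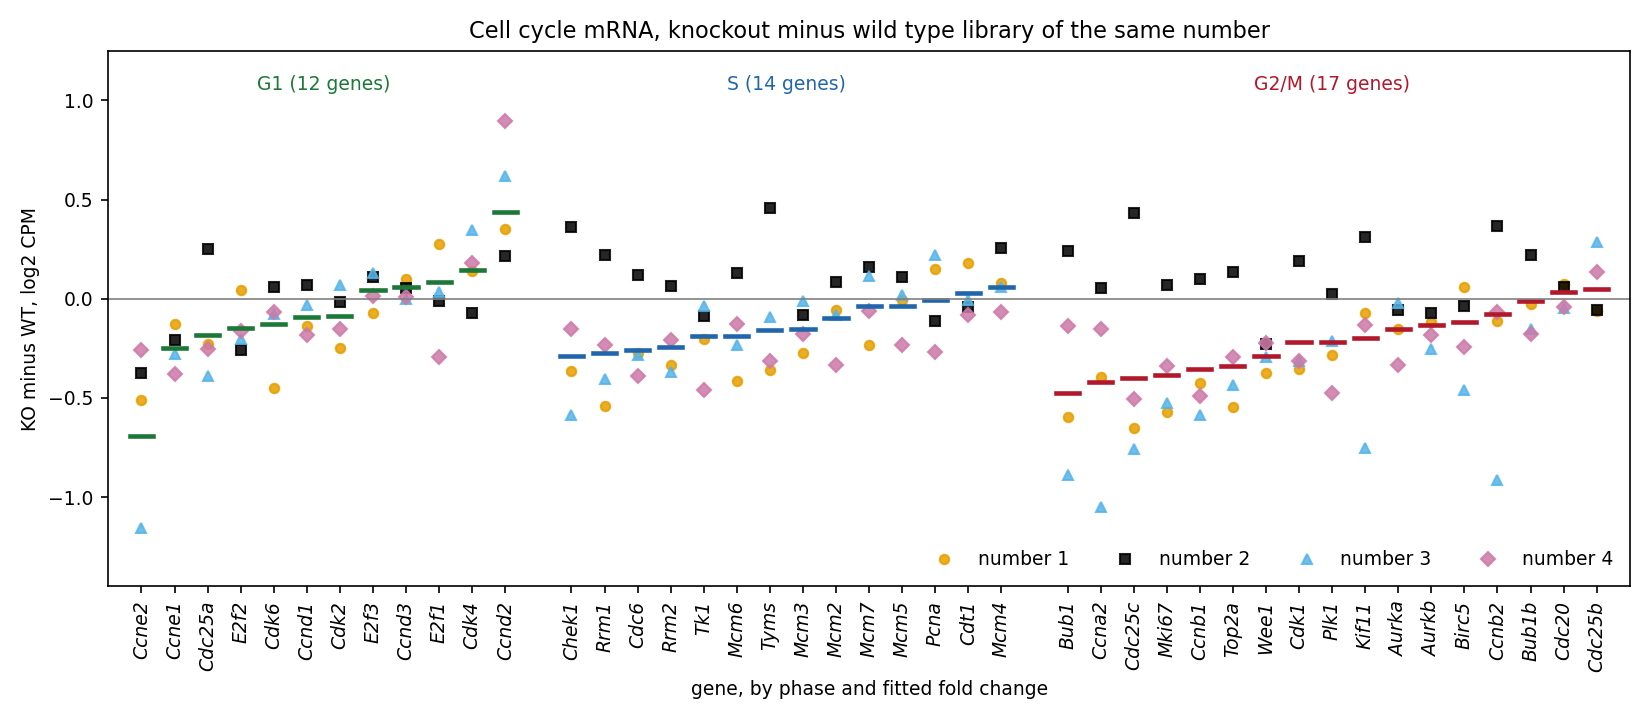
Difference between the KO and the WT library of the same number in log2 CPM (vertical axis) for each of the 43 genes, by phase and ordered by the fitted log2 fold change (coloured bar); symbols mark numbers 1 to 4. For most S phase and G2/M genes the squares of number 2 lie above 0 and most values of the other numbers below it.

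By median, number 2 went the opposite way to the other numbers, at 1 library per genotype and number. The median difference over the 43 genes was -0.20 for number 1, 0.07 for number 2, -0.21 for number 3 and -0.18 for number 4, and the KO library was lower for 33, 15, 33 and 38 genes. Of all 14019 genes, the KO library was lower for 7045, 6653, 6965 and 6995. The plot of differences by number shows number 2 as black squares above the others in S phase and G2/M. KO was lower than WT in all 4 numbers for 7 genes (Ccne1, Ccne2, Mcm3, Tk1, Wee1, Aurka and Aurkb), against 8.29% of all genes, and higher in all 4 for Ccnd2, against 9.52%. No cell cycle gene had all KO libraries below or all above the WT libraries, which 0.435% and 0.35% of all genes had. A test of the genotype effect between numbers 1 and 2 and numbers 3 and 4 (edgeR interaction term) called 0 of the 43 and 0% of all genes, with 133 of the 14019 genes at an unadjusted p under 0.05. This term pools number 2 with number 1, so it cannot address the opposite sign of number 2, which was not tested.

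Ccnd1, the D cyclin that mitogens induce in most cells, was measured at 315, 159, 222 and 287 CPM in WT 1 to 4 and at 286, 166, 216 and 253 CPM in KO 1 to 4. The groups overlapped throughout, and library 2 of each genotype was the lowest. The log2 fold change of KO over WT was -0.09 (SE 0.25), and -0.07 (SE 0.075) with the replicate number as a block. Unless the block is named, SE here and below are from the fit without it, so they include the spread between numbers. Ccnd2 was at 10.9, 4.57, 2.23 and 2.78 CPM in WT and 13.9, 5.32, 3.48 and 5.26 CPM in KO. Each KO library exceeded the WT library of its number, and the spread across numbers was wider than that difference. KO over WT gave a log2 fold change of 0.44 (SE 0.59), and with the block 0.54 (SE 0.17) at an edgeR adjusted p of 0.329. Ccnd3, the D cyclin of highest mean level per length here, was at 210, 212, 70.8 and 80.4 CPM in WT and 224, 220, 70.7 and 80.9 CPM in KO. Libraries of the same number nearly coincided, and numbers 1 and 2 stood well above 3 and 4 in both genotypes. KO over WT gave a log2 fold change of 0.06 (SE 0.51), and with the block 0.04 (SE 0.071).

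Cdk4 was measured at 70.9, 80.6, 64.9 and 75.7 CPM in WT and 78.1, 76.6, 82.5 and 85.8 CPM in KO, with a log2 fold change of 0.15 (SE 0.13). Its values were more even across the libraries than those of Cdk6. Cdk6 was at 18.8, 9.71, 29.6 and 32.0 CPM in WT and 13.8, 10.1, 28.0 and 30.6 CPM in KO, with a log2 fold change of -0.13 (SE 0.44). Here numbers 3 and 4 stood above 1 and 2, opposite to Ccnd3, and the genotypes overlapped.

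**Figure D2:**
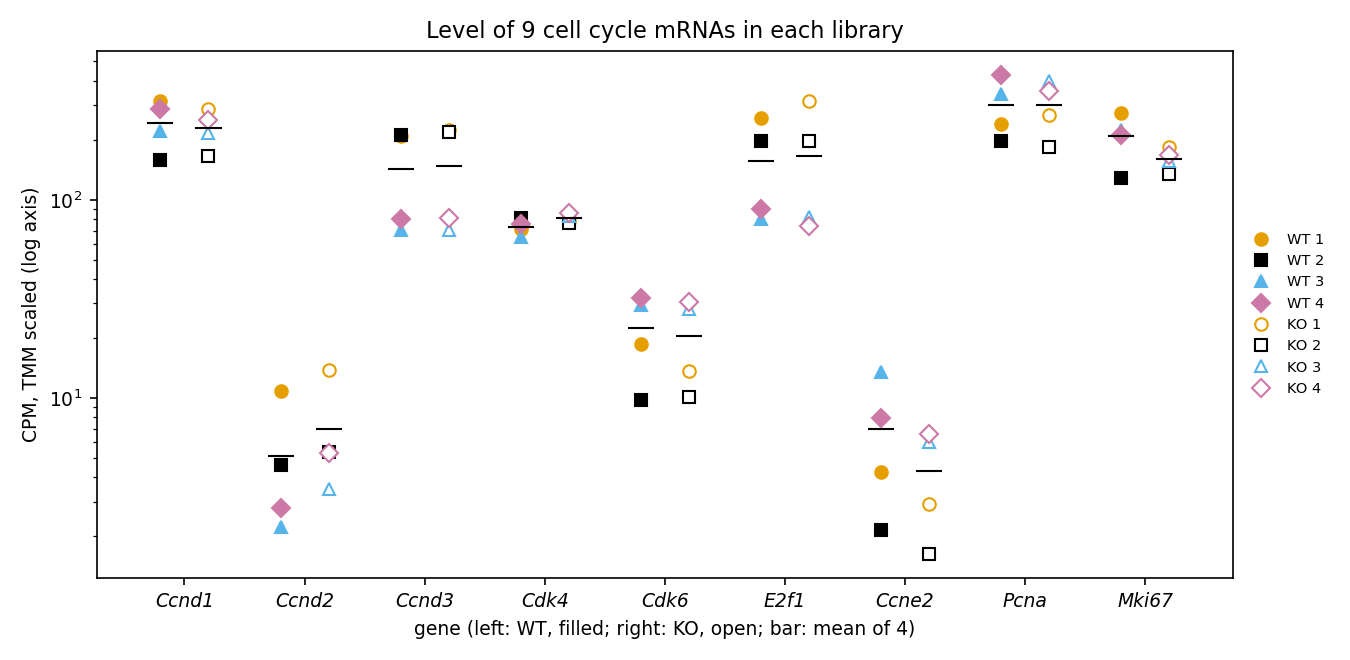
CPM, scaled by TMM, on a log axis for 9 cell cycle mRNAs in each library; filled symbols are WT, open symbols KO, and bars the mean of 4 libraries. For Ccnd3, E2f1, Cdk6 and Ccne2 the libraries split by number (1 and 2 against 3 and 4) rather than by genotype.

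AGO2 groups, the clusters of overlapping reads that the authors deposited for each PAR-CLIP library, were counted for a gene where they lay in its 3′ UTR and held at least 1 T-to-C conversion, the mark of a crosslinked 4-thiouridine. The WT and KO tables held 6287870 and 6445262 reads in groups, with 66451 and 85458 groups, of which 19202 and 14217 were converted 3′ UTR groups. With 1 library per genotype there is no test between genotypes, and the intervals given (exact, 95%) cover counting error only. All 12 G1 genes had a converted 3′ UTR group in both genotypes, against 3 of 14 S phase and 3 of 17 G2 and M genes. Of all 43, 18 had one in both genotypes, 7 in WT alone, 6 in KO alone and 12 in neither. Of the 22 with at least 20 reads in both libraries together, 18 had a group in both genotypes, against 81% of 5197 genes.

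Converted 3′ UTR reads fell in 74 WT groups (6279 reads) and 64 KO groups (4221 reads) of the cell cycle genes. The other 4 of those 22 genes had a group in 1 library alone, 2 in WT and 2 in KO; the tables list no group of under 5 reads, so a gene without a group in a library gets no fold. For the 18 genes with groups in both, KO over WT, each scaled to the reads in groups of its library, was below 1 for 16, with a median of 0.635, against 69.4% and 0.728 for the 4210 such genes of all. It was above 2 for 1 (9.14% of all such genes) and below 0.5 for 5 (26.8% of all such genes). Scaled to reads of converted 3′ UTR groups instead, the median was 0.772, against 0.885.

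**Figure D3:**
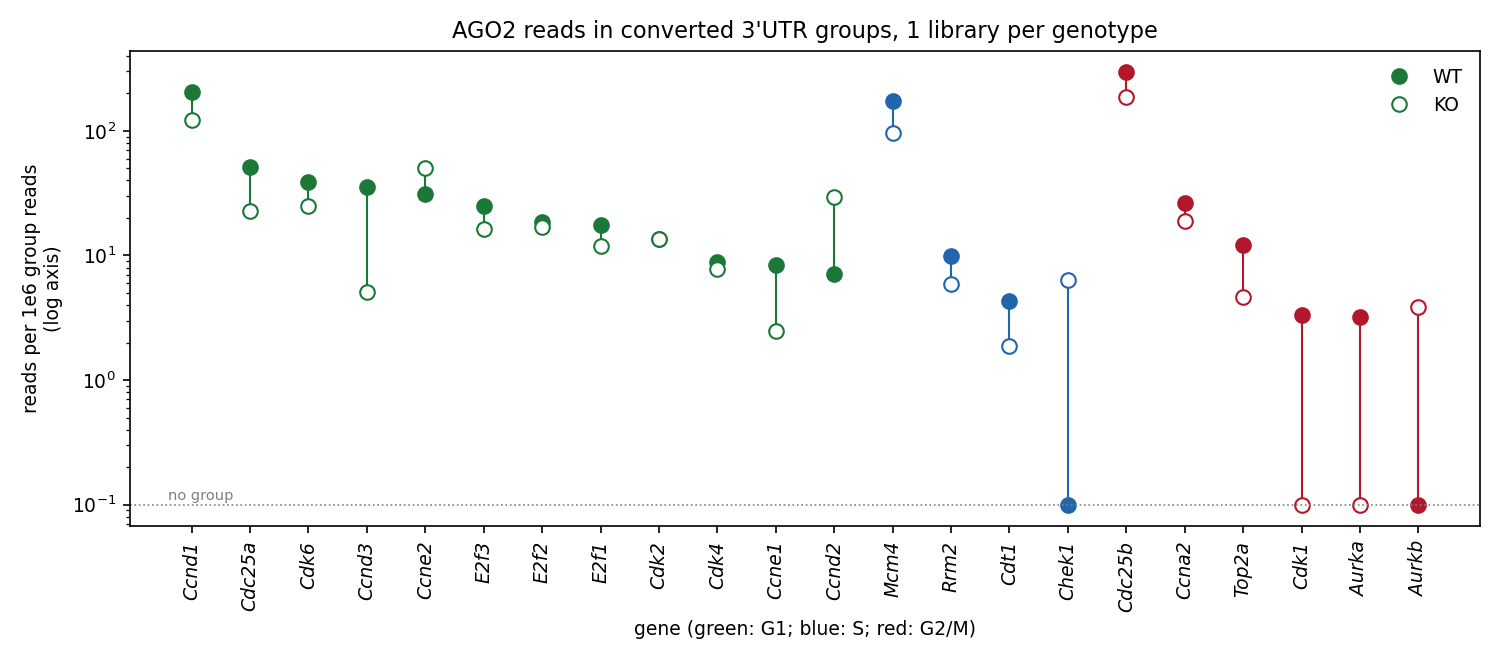
AGO2 reads in converted 3′ UTR groups scaled to the group reads of each library (log axis) for the 22 cell cycle genes with at least 20 such reads; filled circles are the WT library and open circles the KO library, and the dotted line marks genes with no listed group. Cdc25b, Ccnd1 and Mcm4 hold the most reads, and Ccnd2 and Ccne2 are the genes found in both libraries whose KO circle lies above the WT circle.

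The sequences below show where the seed matches of the D cyclins, cyclin E1 and Cdc25a sit, with the mature miRNAs (RefSeq, GRCm38.p6) whose seed, in capitals, they pair with; capitals in a gene's window mark the bases that match. A match is to bases 2 to 8 of the miRNA, or to bases 2 to 7 followed by an A.
miR-16-5p: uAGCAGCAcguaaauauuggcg
Ccnd1: tatctttcacgttgttttcGCTGCTAttg
Ccnd2: tttattattattatttttcGCTGCTAag
Ccne1: aactcttattttgtaagTGCTGCTAtg
Cdc25a: ctgcagaccagtatTGCTGCTActcaaag
E2f3: taccattgagtTGCTGCTActaaaagctca
miR-103-3p: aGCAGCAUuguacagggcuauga
Ccnd3: cccatttctatcATGCTGCcttaataaag
Ccnd1, second window: cctgttgtgcatgccaccATGCTGCtg
In the second Ccnd1 window the match to the miR-15/16 seed starts 1 base further on and overlaps the match shown. These windows are from mm9 as the authors' tables give them, and whether the first base counts as 0 or 1 could not be settled. The first Ccnd1 window lies at chr7:152116695-152116723 and the second at chr7:152116299-152116325. Those of Ccnd2 (chr6:127078627-127078654), Ccne1 (chr7:38883040-38883066) and E2f3 (chr13:29999245-29999274) lie, with the Ccnd1 windows, on the minus strand. Cdc25a (chr9:109795360-109795388) and Ccnd3 (chr17:47736597-47736625) are on the plus strand. All are 3′ UTR groups in the deposited annotation.

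Seed matches to the miR-15/16 family lay in 5 of the 43 genes, all of G1. They were in 8.11% of the 74 WT and 7.81% of the 64 KO cell cycle groups, against 2.58% and 2.72% of all converted 3′ UTR groups. The Ccne1 group held 44 WT reads and 16 KO reads, and the Cdc25a group 282 and 80. The Ccnd2 group held 45 and 81 reads, and the first Ccnd1 group 60 and 39. The second Ccnd1 group held 45 and 46 reads, and the E2f3 group 33 WT reads with no converted KO group overlapping it. Among the groups with a site of this family, that of Ccnd2 alone held clearly more reads in KO. The second Ccnd1 group was nearly level, and the others held fewer reads in KO than in WT. The 5 miRNAs of the family made up 0.380% and 0.395% of miRNA counts in WT 1 and 2 and 0.441% and 0.384% in KO 3 and 4.

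Ccnd1 had 1285 reads in 16 WT groups and 786 in 13 KO groups, a scaled ratio of 0.597 (0.545 to 0.653). It ranked 207 in WT and 248 in KO among 6409 genes with such groups. A single group held 818 of the WT reads (63.7%) and 446 of the KO reads (56.7%), and it holds no seed match to any of the 24 miRNA families searched. The KO group, at chr7:152117718-152117741 on the minus strand, is shown because it carries most of the gene's AGO2 reads.
Ccnd1, strongest group: taaccttcctattttgtagctctg
Lesser Ccnd1 groups matched miR-17 (53 WT and 26 KO reads), let-7 (22 and 43) and miR-34 (24 and 16), and a KO group matched miR-23 (14 reads).

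Ccnd2 had 45 reads in 1 WT group and 190 in 4 KO groups, a ratio of 4.12 (2.96 to 5.84), the largest among cell cycle genes with converted groups in both libraries. With 3′ UTR groups without conversion counted too, WT had 66 reads in 3 groups and KO the same 190 in 4. The miR-15/16 group was shared, and 2 of the 3 converted groups found in KO alone matched miR-29 (64 reads) and miR-19 (29 reads). Whether the WT groups without conversion lie at these sites was not examined. Ccnd3 went the other way, with 225 reads in WT and 33 in KO over 2 groups each, a ratio of 0.143 (0.0961 to 0.207). Its group with the miR-103 match held 185 WT and 21 KO reads. The mRNA of these cyclins had log2 fold changes of 0.44 and 0.06 over 4 libraries per genotype, neither past the test. The labels tie neither PAR-CLIP library to a numbered mRNA library. The mRNA levels of Ccnd2 and Ccnd3, which varied widely between numbers, are therefore not known for the PAR-CLIP cultures.

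Cdk6 had 246 reads in 8 WT groups and 161 in 5 KO groups, a ratio of 0.638 (0.520 to 0.782), and all 5 KO groups overlapped a WT group. A single group of 5 WT reads matched a listed seed, that of miR-25/92. The strongest KO group, at chr5:3522313-3522337 on the plus strand, had the same ends in WT, with 46 reads there and 76 in KO, and matched none of the 24 families.
Cdk6, strongest KO group: cattataaacaactgtaccttactg
The strongest Cdk6 group in WT held 103 reads, and the KO group overlapping it 37. Cdk4 had 1 group, with 56 WT and 50 KO reads, a ratio of 0.871 (0.583 to 1.30), and no listed seed match.

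**Figure D4:**
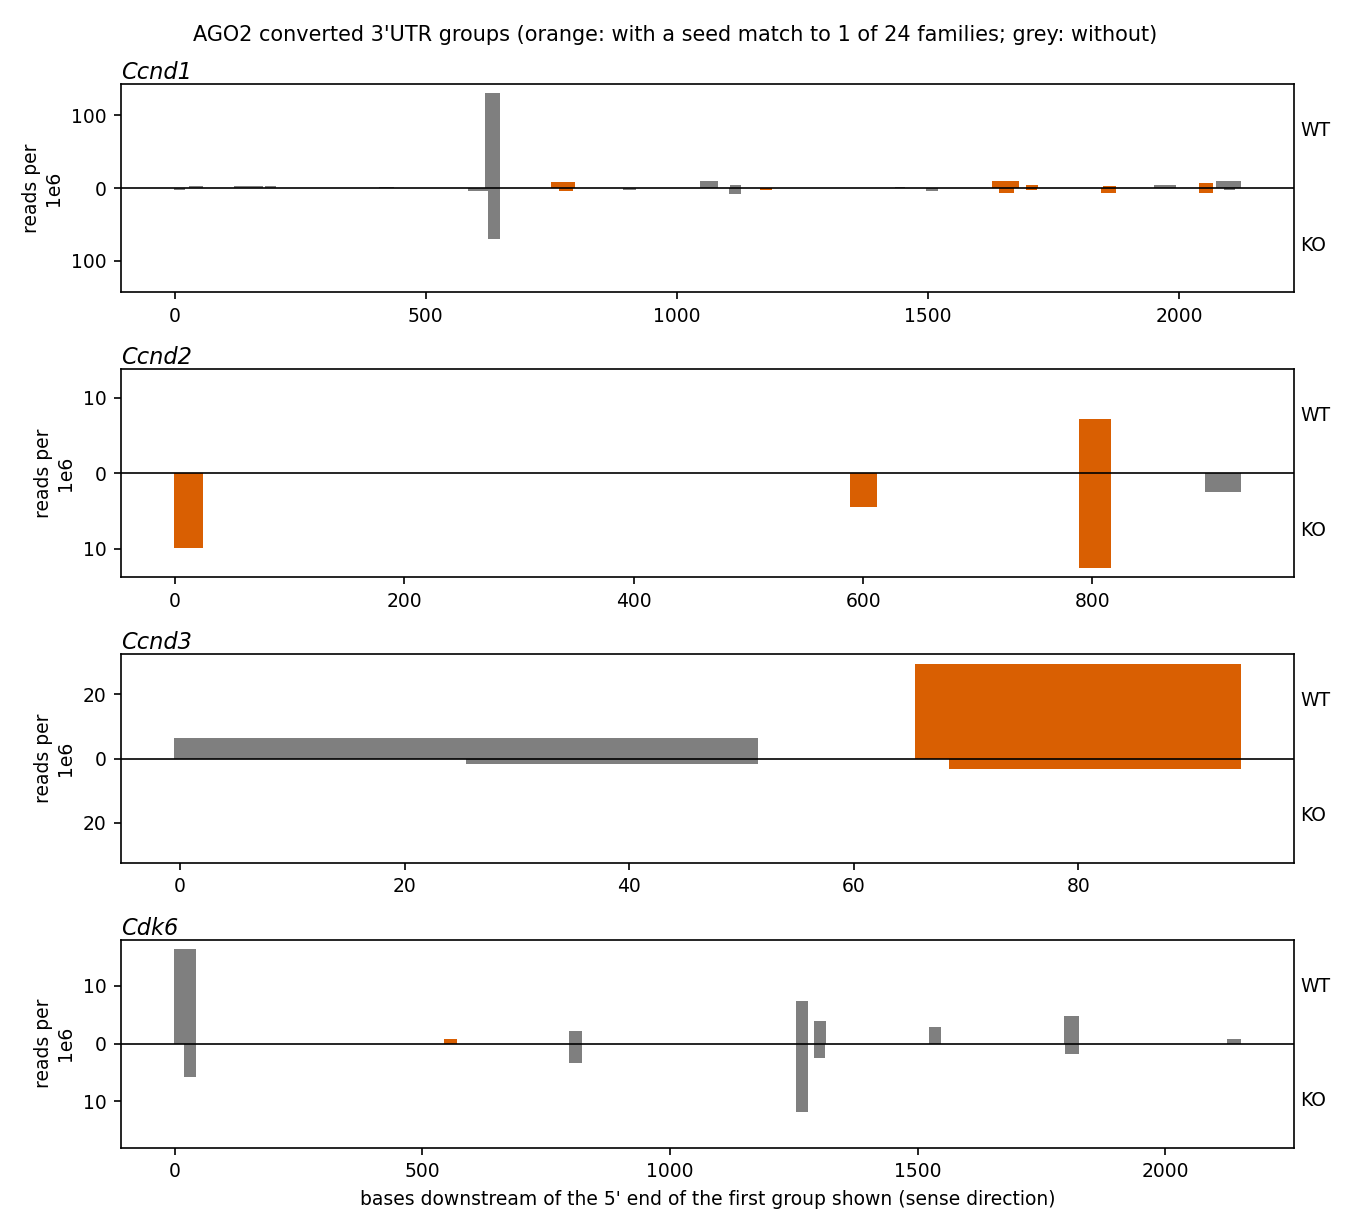
Scaled reads of each converted 3′ UTR group (WT above the line, KO below it) along Ccnd1, Ccnd2, Ccnd3 and Cdk6, in bases from the 5′ end of the first group; orange groups hold a seed match to 1 of 24 miRNA families. A single grey group dominates Ccnd1 in both libraries, and all but 1 of the Cdk6 groups are grey.

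Ccne1 and Ccne2 encode the E cyclins that activate CDK2 at the G1 to S transition. Ccne1 was at 24.8, 13.7, 17.5 and 18.5 CPM in WT and 22.7, 11.8, 14.4 and 14.2 CPM in KO, a log2 fold change of -0.25 (SE 0.25). Its AGO2 ratio was 0.295 (0.157 to 0.523), from 53 and 16 reads. Ccne2 was at 4.22, 2.15, 13.6 and 7.93 CPM in WT and 2.93, 1.63, 6.02 and 6.60 CPM in KO, a log2 fold change of -0.69 (SE 0.60). With the replicate block the value for Ccne2 was -0.64 (SE 0.19), at an edgeR adjusted p of 0.302. Each KO library was below the WT library of its number, while numbers 3 and 4 stood above 1 and 2 in both genotypes. Its AGO2 reads were 195 in WT and 326 in KO, a ratio of 1.63 (1.36 to 1.96). The strongest group held 130 WT and 236 KO reads, and its 3′ part is shown because the libraries differ there.
miR-92a-3p: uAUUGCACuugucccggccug
Ccne2: aattcctatactcttgaatgGTGCAATttg
The window is chr4:11130717-11130746 on the plus strand. The match to the miR-25/92 seed starts at 11130737, so the WT group, which ends at 11130736, stops 1 base before it and the KO group, which ends at 11130746, covers it. The miR-25/92 family made up 0.0927% to 0.146% of miRNA counts in the small RNA libraries. A shared Ccne2 group of 22 WT and 26 KO reads matched miR-21, which made up 45.6% to 50.5% of those counts.

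The other G1 genes are CDK2, its activating phosphatase CDC25A and the activator E2Fs. Cdk2 had an mRNA log2 fold change of -0.09 (SE 0.15) with an AGO2 ratio of 0.987 (0.724 to 1.35). For Cdc25a the mRNA value was -0.18 (SE 0.21), against an AGO2 ratio of 0.450 (0.368 to 0.548), from 321 and 148 reads. The miR-15/16 group held 87.9% of the WT reads and 54.1% of the KO reads of Cdc25a. E2f1, E2f2 and E2f3 had log2 fold changes of 0.08, -0.15 and 0.04 and AGO2 ratios of 0.683 (0.504 to 0.922), 0.917 (0.699 to 1.20) and 0.663 (0.513 to 0.854). The strongest E2f1 group matched both miR-17 and miR-103 and held 73 WT and 38 KO reads. E2f2 groups matched miR-155, at 37 WT reads in a group found in WT alone and at 13 WT and 22 KO reads in a shared group. The strongest E2f3 group matched miR-21 and held 84 WT and 106 KO reads.

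In S phase, Rrm1 and Rrm2 encode the subunits of ribonucleotide reductase, which makes deoxynucleotides. Rrm1 was at 132, 71.4, 113 and 98.3 CPM in WT and 91.0, 83.2, 85.2 and 83.5 CPM in KO, a log2 fold change of -0.28 (SE 0.19). Rrm2 was at 67.0, 33.0, 52.7 and 44.6 CPM in WT and 53.1, 34.5, 40.8 and 38.5 CPM in KO, with -0.24 (SE 0.23). For both genes the WT libraries spread more widely than the KO libraries, and library 2 was lowest in both genotypes. Cdc6, which loads the MCM helicase on origins, was at 17.7, 6.26, 13.0 and 12.8 CPM in WT and 14.7, 6.79, 10.7 and 9.71 CPM in KO, with -0.26 (SE 0.34). Pcna was at 242, 199, 342 and 429 CPM in WT and 269, 184, 399 and 355 CPM in KO, with -0.01 (SE 0.31). Its libraries ordered by number set and not by genotype.

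The 6 MCM helicase subunits, which form the replicative helicase, had log2 fold changes of -0.10 (Mcm2), -0.15 (Mcm3), 0.06 (Mcm4), -0.04 (Mcm5), -0.19 (Mcm6) and -0.04 (Mcm7), all smaller than their SE in the fit without the block. With the replicate block, Mcm2 (-0.10, SE 0.086), Mcm3 (-0.14, SE 0.078) and Mcm6 (-0.16, SE 0.092) exceeded their SE, and none of the 6 was called. The remaining S phase genes ranged from -0.29 for the checkpoint kinase Chek1 to 0.03 for the licensing factor Cdt1. Tk1 (-0.19) and Tyms (-0.16), which make thymidine nucleotides, lay between.

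Mcm4 stood apart from the other MCM genes in AGO2 reads, with 1083 in WT and 622 in KO, a ratio of 0.560 (0.507 to 0.619). Mcm2, Mcm3, Mcm5 and Mcm7 had 5 to 17 reads in a single library each, and Mcm6 had no converted 3′ UTR group. The Mcm4 reads lay almost wholly in a group with a miR-27 match (94.9% in WT and 100% in KO). The same seed matched the strongest group of Cdc25b, the mitotic CDC25 phosphatase, and a group of Rrm2 with 30 WT and 18 KO reads. The sequences are shown because Cdc25b held the most AGO2 reads of the 43 genes and Mcm4 the third most, after Ccnd1.
miR-27a-3p: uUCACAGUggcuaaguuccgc
Cdc25b: ccatcctcactACTGTGAAccccagagcct
Mcm4: cagccgtacatcctttACTGTGAtatg
Rrm2: ttccctgaggtagtttACTGTGAtctag
They lie at chr2:131023777-131023806 (plus strand, Cdc25b), chr16:15624362-15624388 (minus strand, Mcm4, WT) and chr12:25398800-25398827 (plus strand, Rrm2, KO) on mm9. The Cdc25b group held 1820 WT and 1168 KO reads, 98.1% and 97.3% of the gene's reads, and the gene's ratio was 0.632 (0.587 to 0.680). Cdc25b ranked 123 in WT and 149 in KO, and Mcm4 255 and 318, among 6409 genes. Both miR-27 miRNAs together made up 1.69% to 1.78% of miRNA counts in the 4 small RNA libraries. Matches to miR-27 lay in 4.05% of WT and 4.69% of KO cell cycle groups, against 3.27% and 3.59% of all converted 3′ UTR groups.

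Of the other S phase genes, Rrm2 had an AGO2 ratio of 0.598 (0.388 to 0.910) and Cdt1 of 0.434 (0.200 to 0.885), the latter from 27 and 12 reads. The direction for Cdt1 rests on leaving out groups without conversion. With them, its 3′ UTR reads were 27 in WT and 35 in KO. Chek1 had 41 reads in 2 groups in KO and no listed group in WT.

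In G2 and M phase, Mki67, the proliferation antigen that coats mitotic chromosomes, was at 274, 129, 227 and 214 CPM in WT and 185, 136, 157 and 169 CPM in KO. WT 2 lay below all KO libraries and the other 3 WT libraries above them. KO over WT gave a log2 fold change of -0.39 (SE 0.23), and with the replicate block -0.34 (SE 0.10) at an edgeR adjusted p of 0.301. Ccna2, cyclin A2, was at 45.5, 33.1, 57.0 and 34.9 CPM in WT and 34.7, 34.3, 27.5 and 31.3 CPM in KO. Its log2 fold change of -0.42 (SE 0.20) had the smallest unadjusted p of the 43 genes, 0.0653 by edgeR. The gap was widest for number 3, at -1.05 in log2 CPM, and KO 2 was above WT 2.

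Ccnb1, cyclin B1, was at 16.5, 10.6, 12.7 and 11.3 CPM in WT and 12.2, 11.4, 8.39 and 8.02 CPM in KO, a log2 fold change of -0.36 (SE 0.22). Top2a, the topoisomerase that untangles chromosomes and the G2 and M gene of highest level per length (25.9 ± 8.5 RPKM in WT), was at 174, 75.3, 162 and 144 CPM in WT and 119, 82.6, 119 and 118 CPM in KO. KO over WT came to -0.34 in log2 (SE 0.26). As with Mki67, WT 2 was the lowest of all 8 libraries. Cdk1, the mitotic kinase, had -0.22 (SE 0.17) and Wee1, the kinase that restrains it, -0.29 (SE 0.22). The spindle kinases Plk1, Aurka and Aurkb had -0.22, -0.15 and -0.14, the checkpoint kinases Bub1 and Bub1b -0.48 and -0.01, and Cdc20, the activator of the anaphase-promoting complex, 0.03. The remaining genes were Cdc25c (-0.40), the motor Kif11 (-0.20), Birc5 (-0.12), Ccnb2 (-0.08) and Cdc25b (0.05).

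AGO2 reads were sparse on these mRNAs apart from Cdc25b. Ccna2 had 166 WT and 122 KO reads, a ratio of 0.717 (0.563 to 0.911), and a miR-29 match in a KO group of 23 reads. Top2a had 76 and 30 reads, a ratio of 0.385 (0.244 to 0.595), and a miR-34 match in a WT group of 14 reads. Cdk1 (21 reads) and Aurka (20 reads) had a group in WT alone, and Aurkb one in KO alone (25 reads) with a miR-142-3p match. No miRNA with the miR-142-3p seed was found in the small RNA counts, where 368 of 485 miRNAs had a sequence, so its abundance is not known here. Kif11, Mki67 and Ccnb1 had 15, 8 and 7 reads in 1 library, and the other 8 G2 and M genes had no converted 3′ UTR group. Cdc25b, at 7.59 ± 2.4 RPKM in WT, held more AGO2 reads than Mki67 at 20.6 ± 6.0 RPKM or Top2a at 25.9 RPKM.

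Across the cell cycle genes 46 of 138 converted 3′ UTR groups, in 18 of 31 genes, held a match to 1 of the 24 families. The share was 28.4% (18.5% to 40.1%, exact) in WT and 39.1% (27.1% to 52.1%) in KO, against 28.2% and 29.4% of the groups of all genes. The matched families differed widely in abundance. Among those measured, they ran from miR-19 (0.0162% to 0.0207% of miRNA counts) to miR-21 (45.6% to 50.5%). The AU-rich pentamer ATTTA was in 9.46% of WT and 9.38% of KO groups, against 7.80% and 6.84%, and runs of 5 T in 10.8% and 10.9%, against 11.2% and 10.4%. Median group length was 27 and 26 bases for cell cycle genes and 25 for all. Of the cell cycle groups, 51.4% of WT and 60.9% of KO overlapped a group of the other genotype, against 39.6% and 53.9% for all genes.

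Promoters of the genes were searched for 3 motifs in windows of 300 bases around the start (RefSeq, GRCm38.p6), which were found for 35 of the 43 genes in 39 windows. E2F sites were searched as TTTCCCGC, TTTGGCGC, TTTGCCGC and TTTCGCGC, the cell cycle homology region CHR (the element through which the DREAM and MuvB complexes act) as TTTGAA and TTCGAA, and the NF-Y box as CCAAT, each on both strands. E2F matches were in 33.3% of G1, 42.9% of S phase and 7.69% of G2 and M windows, against 2.26% of 32851 windows of all genes. CHR matches were in 16.7%, 14.3% and 84.6%, against 19.2%, and CCAAT in 50%, 64.3% and 92.3%, against 37.4%. The windows of 30 bases below show the E2F match in S phase and G1 genes and the CHR match in G2 and M genes. The letters are a description of the windows, and no factor's binding was measured.
Mcm6, E2F: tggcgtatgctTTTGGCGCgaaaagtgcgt
Cdc6, E2F on the other strand: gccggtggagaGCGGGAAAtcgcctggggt
Cdc25a, E2F: ggtgaattccgTTTGGCGCcaactaggaaa
Mki67, CHR: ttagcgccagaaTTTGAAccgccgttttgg
Top2a, CHR: ctaattggtttaTTCGAAaaggcggtcttt
Cdk1, CHR: ctgattggctccTTTGAAcgtctacgtgca
On GRCm38.p6 they lie at chr1:128359797-128359826 (minus strand, Mcm6), chr11:98908002-98908031 (plus, Cdc6), chr9:109875501-109875530 (plus, Cdc25a), chr7:135716478-135716507 (minus, Mki67), chr11:99024312-99024341 (minus, Top2a) and chr10:69352966-69352995 (minus, Cdk1). In the Top2a and Cdk1 windows a CCAAT box, read on the other strand, precedes the CHR.

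Replicate number separated many mRNAs more than genotype did, among all genes as in this list. Libraries numbered 3 and 4, of both genotypes, all lay above those numbered 1 and 2 for 6 genes (Cdk6, Ccne2, E2f3, Mcm6, Pcna and Bub1), against 25.1% of all genes. All lay below for 12 (Ccnd3, E2f1, E2f2, Cdt1, Tk1, Ccnb2, Cdc25b, Plk1, Aurkb, Bub1b, Cdc20 and Birc5), against 24.4%. As shares of the 43 genes these are 14.0% above and 27.9% below, so the split by number is not particular to the list. Of these 12, 7 were among the 17 G2 and M genes. The ratio of means ran from 0.336 for E2f1 to 3.12 for Ccne2. E2f1 was at 260, 199, 80.0 and 90.4 CPM in WT 1 to 4 and 314, 197, 81.9 and 73.8 CPM in KO 1 to 4. Genes of the same phase differed, since Bub1 (ratio 2.39) and Bub1b (0.579) lay on opposite sides, as did Cdk6 (2.29) and Ccnd3 (0.350). The labels do not say what separates the numbers. The marker sums given above moved with the number in both directions, with stromal, endothelial, mast cell and T or NK cell sums higher and B cell and erythroid sums lower in numbers 3 and 4, and their part in these values was not tested.

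**Figure D5:**
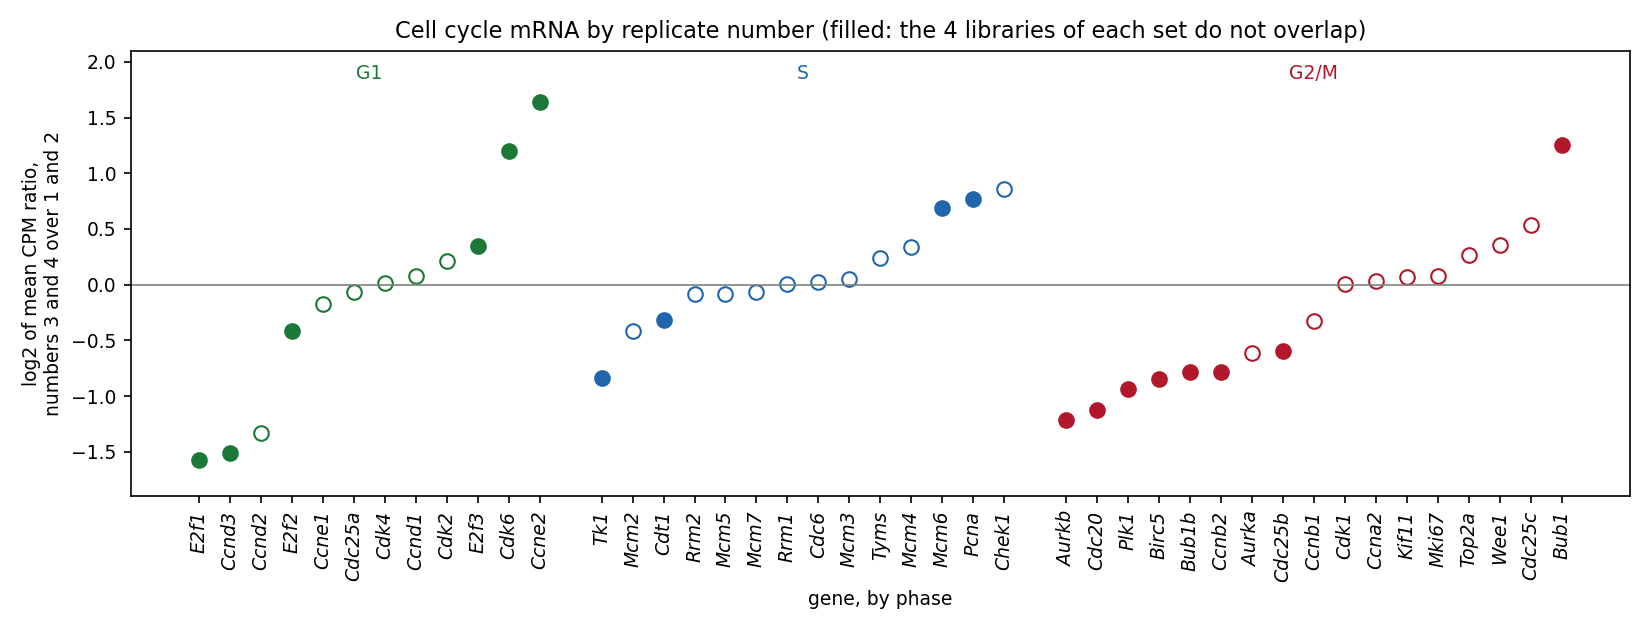
Log2 ratio of mean CPM in libraries numbered 3 and 4 over those numbered 1 and 2, both genotypes together, for the 43 genes by phase; filled circles mark genes whose libraries do not overlap between the number sets. The G1 group holds values at both ends (E2f1 and Ccne2), and most filled G2/M genes lie below 0.

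A further list of 107 genes of the cycle, 105 of them found, was tested in the same fit. edgeR called 0 of 105 with and without the block, the fold change was negative for 84, against 50.4% of all genes, and the median log2 fold change was -0.12. Between libraries of number 2, only 38 of the 105 were lower in KO, with a median difference of 0.08 in log2 CPM, against 70, 84 and 80 for numbers 1, 3 and 4. Spindle, kinetochore and cytokinesis genes (29 of 33 below 0, median -0.19) and replication origin and fork genes (27 of 32, median -0.14) were the largest groups. Kif20a, a kinesin of cytokinesis, was at 42.4, 29.7, 33.7 and 31.4 CPM in WT and 25.6, 31.7, 24.1 and 25.1 CPM in KO, with -0.36 (SE 0.17). Ect2, which sets up the cleavage furrow, had -0.47 (SE 0.25). Rfc4, a clamp loader subunit, had -0.41, and Tfdp2 and E2f5, of the E2F family, -0.44 and -0.26. Of the CDK inhibitors 4 of 6 were above 0. Cdkn1a, which encodes p21, was at 191, 175, 92.9 and 124 CPM in WT and 300.4, 179, 111 and 144 CPM in KO, with 0.33 (SE 0.34) and each KO library above the WT library of its number. Cdkn2b had -0.48 (SE 0.53) at under 2 CPM. The ubiquitin ligase genes Fbxw7 and Anapc1 had 0.16 and -0.11, and the checkpoint kinases Chek2 and Atm -0.25 and -0.20.

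Some counts may include reads of another gene. In RefSeq (GRCm38.p6) the spans of 17 of the 43 genes overlap that of another gene, with strand and exons not considered. The share of all genes with such an overlap was not counted. Among the 17 are Ccnd1, Ccnd2, Ccnd3, Cdk4, Cdk6, Ccne2, Ccna2 and Top2a, and Mcm7 holds the miRNA genes Mir106b, Mir93 and Mir25. Ccnd3, Pcna, Tyms, Ccnb1, Ccnb2 and Aurkb have pseudogenes. How the counting handled strand and multiply mapped reads is not stated, so reads shared with these neighbours or copies could not be separated.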

How the data were processed

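Per the file headers, each mRNA table the authors deposited pairs 21444 Ensembl genes with read counts and RPKM values; 19328 identifiers matched a symbol. Bowtie 0.12.7, CASAVA 1.8.2 and mm9, a mouse build, come from the submitters' processing notes. Neither the gene counter nor the program behind the AGO2 groups is stated. Counts as deposited were tested with edgeR 4.0.16 (quasi-likelihood, TMM, filterByExpr, genotype alone, Benjamini-Hochberg adjusted p under 0.05) in R 4.3.3, and CPM are TMM scaled. Deposited RPKM served to compare levels between genes. SE is the fold change over the square root of F, in the fit without the block unless the block is named. Log2 CPM differences used a prior count of 2.

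Alternatives were RLE factors, DESeq2 1.42.0, no filter, the replicate number or number set as a block, leaving out libraries, and numbers 1 and 2 or 3 and 4 alone. Deviations of same-numbered WT and KO libraries correlated at 0.770, 0.810, 0.745 and 0.801, above 0.1, so the number was also fitted as a block; WT 4 and KO 3 correlated at 0.832, so numbers 3 and 4 were not told apart by this check.

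AGO2 groups carry read counts the authors deposited per group, listed from 5 reads upward. They were scaled to the reads in groups of each library, with exact conditional binomial intervals, in Python 3.11.15. Their sequences read in the sense direction: 19.6% of plus-strand groups held a seed match as given and 3.09% in reverse complement. Small RNA values were miRNA counts the authors deposited. The KO 4 small RNA table also names KO 2 over its fractions and is used as its sample record labels it. Sequences came from the group tables and from RefSeq (GRCm38.p6), where 24 miRNA families of the list had a mature sequence and 35 genes a promoter window.

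Genes named in full were the D cyclins, Cdk4 and Cdk6, the 3 of smallest p and the highest RPKM in each phase, members with AGO2 groups in both genotypes, and the 2 of smallest p in each group of the further list; others are given for completeness. A gene this rule names in the further list is not reported here. The genes and lists were chosen with earlier results of these data known. Scripts were tested on simulated data.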

Additional observations from a re-analysis of the deposited data

Results flagged for a closer look

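In 7 of 86 groups of 4 libraries a cell cycle gene had a library far from the other 3 relative to their spread. The limit used flags about 1 in 20 groups of independent, normally spread values. These groups share libraries, and the check was not run over all genes, so no excess particular to the list can be read from the count. KO 1, the library of fewest counts, was the high one for Cdc25a (24.1 CPM, others at most 18.6), Cdt1 (87.9 CPM, others at most 59.1), Mcm2 (122.8 CPM, others at most 73.0) and Cdk1 (37.2 CPM, others at most 33.3). WT 1 was high for Cdt1 (77.5 CPM, others at most 60.9). KO 2 was the low one for Mcm4 (41.3 CPM, others at least 64.2) and Top2a (82.6 CPM, others at least 117.7).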

How the results depend on the processing

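None of the 43 cell cycle genes was called under any of the 20 alternatives, and the lowest adjusted p in any of them was 0.0733 (Mki67, edgeR with the replicate number as a block and without number 2). The count of all genes called moved from 0 to 3 with DESeq2, 5 with the replicate block, 82 with the replicate block in DESeq2, 1 with the number set as a block and 14 in numbers 3 and 4 alone. With the block and 1 number left out it ran from 3 to 29, and it was 0 with any single library left out. The cause of these moves was not tested, and the block changed no call of a cell cycle gene. Of 860 single-gene values over the 20 alternatives, 85 had the opposite sign, up to 11 genes in the fit without WT 1 and 0 with RLE factors, DESeq2, no filter or the replicate block. The median log2 fold change of the 43 genes stayed below 0, between -0.26 and -0.04, under these alternatives. The number of AGO2 genes past 2-fold was 10 of 22 when the 4 genes with a group in 1 library alone counted as past it. Of these, 3 were above 2-fold and 7 below 0.5-fold, against 13.8% and 34.4% of 5197 genes. The number past 2-fold ran from 7 to 10 under the other countings. Over genes with groups in both libraries alone, an alternative chosen after seeing the data, it was 6 of 18. Of all such genes, 9.14% were above 2-fold and 26.8% below 0.5-fold. Counted by number of groups, the median ratio was 1. At 1 library per genotype the AGO2 ratios have no replicate error.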
